A study of Homo sapiens with 12 samples.

Results

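The respiratory chain genes described here are the nuclear genes whose symbols name a subunit of complexes I to V, read in HK-2 cells. They were chosen by symbol: NDUFA, NDUFB, NDUFC, NDUFS and NDUFV genes with a number, SDHA to SDHD, symbols that begin with UQCR, COX4 to COX8 and symbols that begin with ATP5. Each gene was read from its probe set with the highest mean, which had to be above 4 on the log2 scale on at least 3 of the 12 arrays. Of 78 genes that matched, 71 passed, among 10508 genes tested in all. They comprised 32 genes of complex I, 3 of complex II, 6 of complex III, 12 of complex IV and 18 of complex V. The 18 include ATP5MC2P1, a pseudogene of ATP5MC2, which read 5.55 to 5.99 on all arrays and was not called in any comparison. All 71 were above 4 on every array.

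HK-2 is an established, immortalised cell line derived from proximal tubule epithelium of the human kidney. The cells were given CsA, read here as cyclosporine A, or its vehicle, for 12 h or 48 h, with 3 biological replicates in each of the 4 groups: control 12 h, CsA 12 h, control 48 h and CsA 48 h. The dose is not given in the labels, and cells were near confluence when exposure began. The hours of exposure and the hours in culture cannot be told apart in a comparison of 48 h with 12 h.

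The chain sits in the inner mitochondrial membrane. Complex I takes electrons from NADH and complex II takes them from succinate. They pass through ubiquinone to complex III and through cytochrome c to complex IV, which reduces oxygen. Complexes I, III and IV pump protons, and complex V, the ATP synthase, lets the protons return and makes ATP. Mitochondrial DNA codes for a few core subunits, and the nuclear genes code for the rest and for all of complex II. Kidney proximal tubule cells depend on this machinery to drive reabsorption, whereas cell lines in glucose medium can also use glycolysis. An array value reads a gene's share of the RNA of the culture, so less RNA per cell and fewer cells that carry it cannot be told apart.

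The start regions of the subunits are shown because nuclear respiratory factor 1 (NRF1), GA-binding protein (GABP), YY1 and the oestrogen-related receptors (ERR) are known regulators of this gene class. RefSeq promoters of GRCh38.p14, 250 bases before to 50 bases after a gene's start, were held for 62 of the 71 genes. The first start listed was used for the 9 genes with several. Both strands were searched. The NRF1 motif GCGCNTGCG lay in 21 of the 62 subunit promoters (33.9%), against 8.05% of all 27305 promoters. The GABP motif CCGGAAG lay in 18 (29%, against 10.7%), the YY1 motif AAGATGGCG in 7 (11.3%, against 1.85%) and the ERR motif CAAGGTCA in 4 (6.45%, against 1.33%). SP1 boxes (GGGCGG) lay in 39 (62.9%, against 44.6%) and CCAAT boxes in 21 (33.9%, against 35.7%). The median GC content was 61% in the subunit promoters and 58.3% in all. At least one of the first 4 motifs was found in 37 of the 62. Of the 9 subunits that fell with time in control cells, NRF1 matched 5 (NDUFA6, NDUFA8, NDUFA9, NDUFB4 and NDUFS6). YY1 also matched NDUFA6 and NDUFA9, and GABP matched NDUFB7. None of those 4 motifs matched ATP5MC1, NDUFB10 or NDUFB3. COX7A2L, which rose, also held none of them, and NDUFB5, the other riser, had no promoter entry. The 250 bases before the start follow for 6 of these genes, written 5′ to 3′ on the gene's strand: NDUFS6 (chr5:1801157-1801406, plus strand), NDUFB4 (chr3:120596086-120596335, plus), NDUFA9 (chr12:4648864-4649113, plus), NDUFB7 (chr19:14572067-14572316, minus), ATP5MC1 (chr17:48892537-48892786, plus) and COX7A2L (chr2:42361218-42361467, minus). Capitals mark NRF1, GABP and CCAAT matches.
NDUFS6: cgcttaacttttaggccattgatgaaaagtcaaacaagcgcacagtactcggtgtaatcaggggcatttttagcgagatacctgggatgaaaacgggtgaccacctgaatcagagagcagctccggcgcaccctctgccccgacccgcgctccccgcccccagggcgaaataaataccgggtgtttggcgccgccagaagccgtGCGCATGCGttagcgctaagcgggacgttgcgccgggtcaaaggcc
NDUFB4: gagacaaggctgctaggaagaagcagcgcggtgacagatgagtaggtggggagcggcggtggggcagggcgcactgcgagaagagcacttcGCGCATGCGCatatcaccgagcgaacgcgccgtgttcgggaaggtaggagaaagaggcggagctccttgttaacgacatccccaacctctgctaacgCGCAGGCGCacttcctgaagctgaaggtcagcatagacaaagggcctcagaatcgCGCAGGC
NDUFA9: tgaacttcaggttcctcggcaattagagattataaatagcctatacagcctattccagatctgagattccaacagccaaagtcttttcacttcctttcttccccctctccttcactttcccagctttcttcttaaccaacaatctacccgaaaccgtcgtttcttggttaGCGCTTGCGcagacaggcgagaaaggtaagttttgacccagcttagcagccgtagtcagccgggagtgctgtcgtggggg
NDUFB7: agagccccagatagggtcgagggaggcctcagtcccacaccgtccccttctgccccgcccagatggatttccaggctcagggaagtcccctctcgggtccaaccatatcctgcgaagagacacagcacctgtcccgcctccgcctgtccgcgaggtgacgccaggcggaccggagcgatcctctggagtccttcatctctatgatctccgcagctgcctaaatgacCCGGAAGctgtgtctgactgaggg
ATP5MC1: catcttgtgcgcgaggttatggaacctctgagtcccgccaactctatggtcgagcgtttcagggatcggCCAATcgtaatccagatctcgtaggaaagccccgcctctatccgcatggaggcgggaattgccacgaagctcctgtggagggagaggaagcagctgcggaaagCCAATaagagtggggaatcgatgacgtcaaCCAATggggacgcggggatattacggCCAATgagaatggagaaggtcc
COX7A2L: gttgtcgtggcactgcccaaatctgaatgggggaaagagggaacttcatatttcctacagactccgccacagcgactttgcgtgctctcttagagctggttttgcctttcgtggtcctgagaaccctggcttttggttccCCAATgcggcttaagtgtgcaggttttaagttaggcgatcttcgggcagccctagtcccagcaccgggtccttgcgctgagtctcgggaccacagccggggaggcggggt
NDUFS6 holds 1 NRF1 match, 46 bases before the start. NDUFB4 holds 4, of which those at 159 and 158 bases overlap on opposite strands and the one at 7 bases runs past the start, so its last bases are not shown. NDUFA9 has 1 NRF1 match at 80 bases and NDUFB7 has 1 GABP match at 24. The YY1 match of NDUFA9 lies after the start and is not shown. ATP5MC1 holds 4 CCAAT boxes, at 181, 78, 48 and 22 bases, and COX7A2L holds 1, at 110. A match is a description of letters, and binding was not measured.

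Most subunits had a lower mean at 48 h than at 12 h in both treatments, although few passed the test. CsA and control arrays lay close to each other at both times. The heat map of all 71 genes shows this layout.

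**Figure D1:**
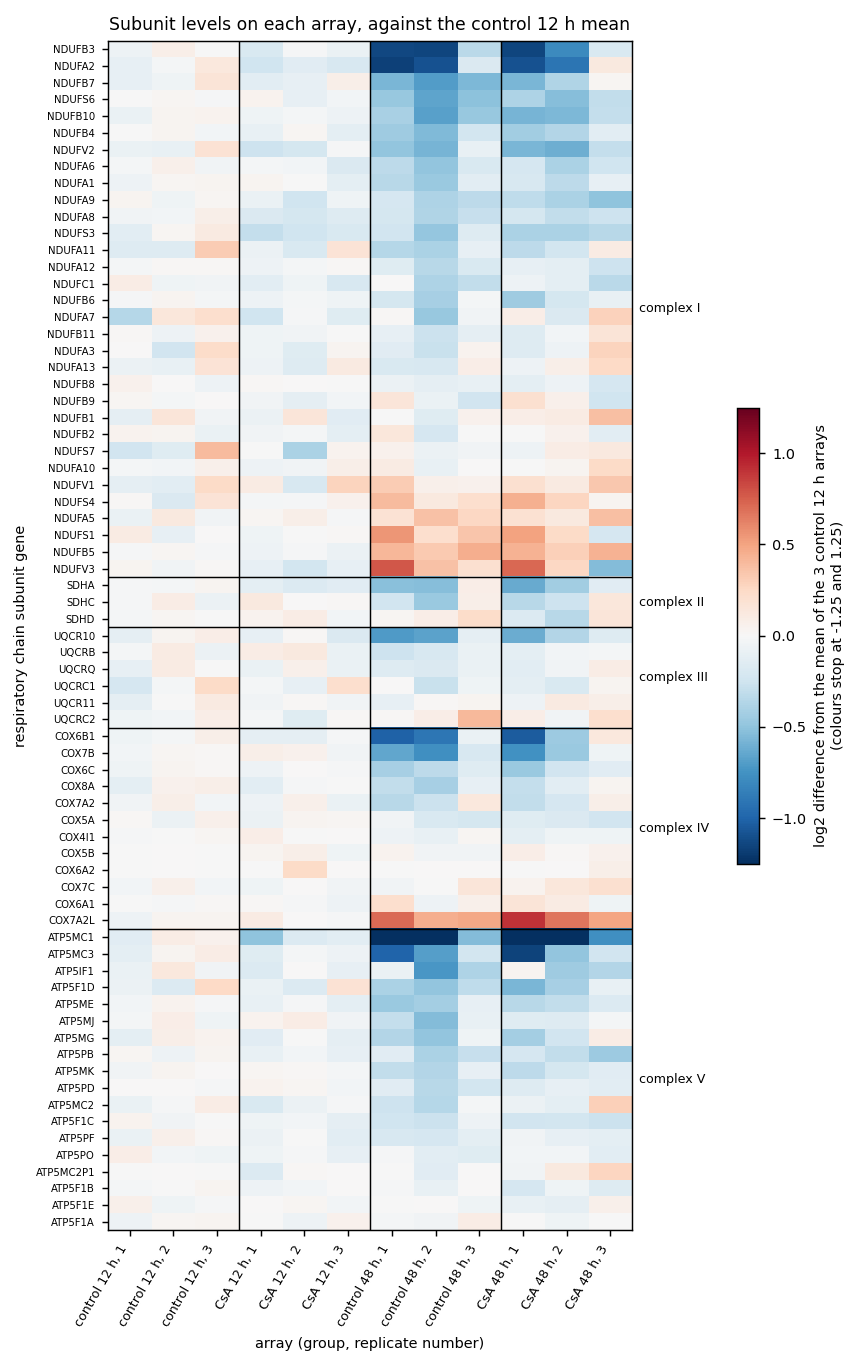
Heat map of the 71 subunit genes (rows, by complex and by change in control cells) on the 12 arrays (columns, by group and replicate number), coloured by the log2 difference from the mean of the 3 control 12 h arrays. The 12 h arrays are pale throughout. At 48 h most rows are below 0 (blue), many of them pale, and COX7A2L and NDUFB5 are red on all 6 arrays. The share of rows below 0 at 48 h runs from 56.3% (CsA, replicate 3) to 83.1% (control, replicate 2).

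All arrays had medians between 2.85 and 2.95, and the lowest correlation between replicates was 0.997, 0.997, 0.991 and 0.982 in control 12 h, CsA 12 h, control 48 h and CsA 48 h. The median standard deviation of a subunit among its 3 replicates was 0.068, 0.066, 0.14 and 0.13 in that order, below the 0.12, 0.12, 0.21 and 0.28 of all genes tested. Of 11 proximal tubule markers on the array 1, DPP4, passed the filter. LRP2, CUBN and AQP1, which define that cell type, did not, whereas 7 of 8 markers of kidney epithelium did. Of markers of other cells, 0 of 4 passed for leukocytes, 1 of 5 for endothelium (PECAM1), 1 of 3 for podocytes (PODXL), 1 of 5 for the distal nephron (AQP2) and 3 of 6 for fibroblasts (COL1A1, DCN and LUM).

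Between 12 h and 48 h in control cells, 9 subunits fell and 2 rose. Complex I held 8 of the falls and the last was ATP5MC1 of complex V, while NDUFB5 of complex I and COX7A2L of complex IV rose. Below 0 were 57 of the 71 (80.3%), against 49.1% of all genes, with a median change of -0.18 (log2) against 0.01. By limma with Benjamini-Hochberg adjustment over all genes, 12.7% of the subunits were called lower and 2.82% higher, whereas 13.7% and 12.5% of all genes were. The share called lower was thus near that of all genes, and the share called higher was below it.

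The arrays of the 2 times did not overlap for 30 subunits that were lower at 48 h and for 5 that were higher (42.3% and 7.04%). For all genes these shares were 25.2% and 24.9%. Complex V held 11 of the 30, complex I 14, complex IV 3 and complex III 2.

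Complex I gave 25 of 32 values below 0, with a median of -0.19. NDUFS6, a zinc-binding accessory subunit of the matrix arm, read 11.84, 11.87 and 11.82 on the control 12 h arrays and 11.37, 11.19 and 11.33 at 48 h. The groups did not overlap, and the gene fell by 0.55 (SE 0.095, adjusted p = 0.00405), which is 1.46-fold. NDUFB10, a membrane arm subunit with a cysteine-rich CHCH fold, read 11.08, 11.20 and 11.20, then 10.75, 10.48 and 10.68. It fell by 0.52 (SE 0.11, adjusted p = 0.00881), again with no overlap, and its second probe set moved by -0.42.

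NDUFB3, a small membrane arm subunit, had the largest fall in complex I. It read 11.11, 11.25 and 11.17 at 12 h and 10.04, 10.03 and 10.84 at 48 h, a fall of 0.87 (SE 0.25, adjusted p = 0.0308) in which the third 48 h array stood well above the others. NDUFB7, another CHCH subunit, read 9.99, 10.05 and 10.25, then 9.53, 9.40 and 9.53, with all 48 h arrays below all 12 h arrays. It fell by 0.61 (SE 0.15, adjusted p = 0.0165).

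The other calls in complex I were smaller. NDUFB4 of the membrane arm fell by 0.41 (SE 0.12, adjusted p = 0.0266). NDUFA6, which holds the mitochondrial acyl carrier protein on the matrix arm, fell by 0.34 (SE 0.11, adjusted p = 0.0405). NDUFA9, next to the quinone site, fell by 0.31 (SE 0.096, adjusted p = 0.0398), and NDUFA8, also a CHCH subunit, fell by 0.30 (SE 0.085, adjusted p = 0.0297). For these 4 genes too, no 48 h control array reached a 12 h control array.

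NDUFB5, also of the membrane arm, went the other way. It read 11.92, 11.96 and 11.92 at 12 h and 12.35, 12.26 and 12.39 at 48 h, a rise of 0.40 (SE 0.084, adjusted p = 0.00915) with clear separation. It was the 1 of the 11 B series genes above 0, where 10 were below. The A series gave 10 of 12 below 0 with a median of -0.26. The 5 core subunits, of the arm that holds the flavin and iron-sulphur clusters, had a median of -0.02 and none was called. They ranged from -0.39 for NDUFV2 to 0.37 for NDUFS1 (adjusted p = 0.0813 and 0.117).

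**Figure D2:**
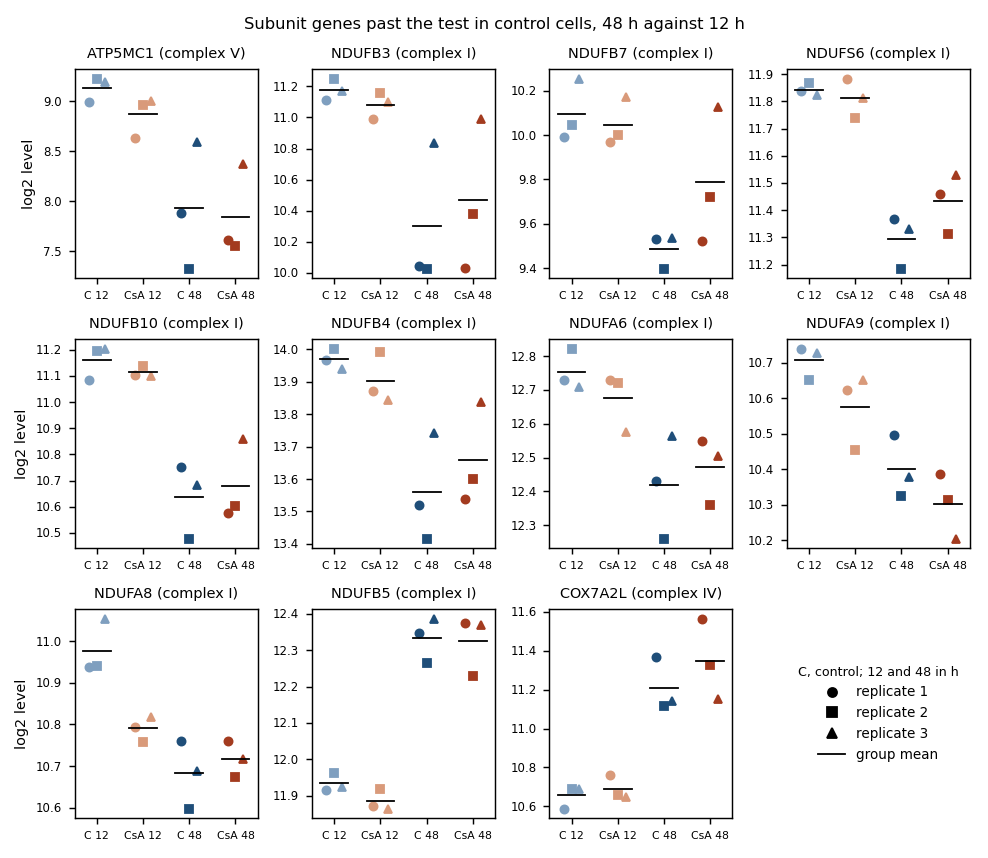
Log2 level of each of the 11 subunit genes past the test in control cells, by group (x axis: C, control; 12 and 48 in h), with 1 point per array shaped by replicate number and a bar at each group mean; each panel has its own y axis, which does not start at 0. NDUFB5 and COX7A2L are higher on all 48 h arrays than on all 12 h arrays, and in NDUFB3 and ATP5MC1 the triangle, replicate 3, is the highest 48 h array of both treatments.

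Complex V had the most even shift, with 17 of 18 genes below 0 and a median of -0.25. ATP5MC1 is 1 of 3 genes that code for the same mature subunit c, the rotor ring that protons turn. It read 8.99, 9.22 and 9.19 at 12 h and 7.88, 7.33 and 8.60 at 48 h. All 48 h arrays were lower, spread over more than 1 log2 unit, and the fall was 1.20 (SE 0.30, adjusted p = 0.0183) or 2.30-fold. The other c genes did not pass. ATP5MC3 differed by -0.64 (adjusted p = 0.0688), and by -0.70 and -0.49 on its other probe sets, and ATP5MC2 by -0.22 (adjusted p = 0.247).

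The 5 genes of the catalytic head and central stalk had a median of -0.03. ATP5F1A, the alpha subunit, read 13.61, 13.70 and 13.70, then 13.64, 13.63 and 13.76, with full overlap. ATP5F1B and ATP5F1E, beta and epsilon, differed by -0.03 and -0.02. ATP5F1D and ATP5F1C, also of this part, differed by -0.40 and -0.20, and neither was called. A second probe set of ATP5F1D was at -0.48. The 4 peripheral stalk genes lay between -0.27 and -0.10, and the other 4 membrane subunits between -0.33 and -0.26. ATP5ME, one of these, differed by -0.33 (adjusted p = 0.0507). ATP5IF1, which inhibits the enzyme when it runs in reverse, differed by -0.40 (adjusted p = 0.105) on the probe set used and by -0.04 and -0.96 on others.

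In complex IV, which reduces oxygen, COX7A2L rose and no gene fell. COX7A2L is related to COX7A2 and is known to tie complex III to complex IV in supercomplexes. It read 10.59, 10.69 and 10.69 at 12 h and 11.37, 11.12 and 11.14 at 48 h. No array overlapped, and the rise was 0.55 (SE 0.12, adjusted p = 0.0105) or 1.47-fold. COX7A2 itself differed by -0.16 (adjusted p = 0.412).

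COX4I1, COX5B and COX6A1, all ubiquitous forms, differed by -0.05, -0.01 and 0.07, although COX4I1 was at 0.02 after a further quantile normalization. COX7B differed by -0.54 (adjusted p = 0.0546), COX6B1 by -0.67 (0.110) and COX8A by -0.27 (0.112). A second, weaker probe set of COX7B was at 0.09. The tissue-restricted forms COX4I2, COX6B2, COX7A1, COX7B2 and COX8C did not pass the filter, with highest values between 2.03 and 3.19. The pseudogene COX6A1P1 reached 2.29. ATP5MF, a ubiquitous subunit of complex V, reached 2.65 on its remaining probe set and is not read as unexpressed from it, because another of its probe sets carries a second symbol and was not used. COX6A2, the form of heart and skeletal muscle, passed at 4.71 to 4.95. On the array that decides the filter, number 3 from the top, the value nearest inside was the 4.72 of COX6A2 and the value nearest outside was the 2.90 of COX4I2.

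Complexes II and III had no calls among the genes read, which did not include SDHB of complex II or UQCRFS1 and UQCRH of complex III. SDHA, the flavoprotein that oxidises succinate, differed by -0.32 (adjusted p = 0.177), SDHC by -0.21 and SDHD by 0.11. Other probe sets of SDHC past the filter lay between -0.47 and 0.51. SDHA was read by a probe set whose suffix marks possible cross-hybridisation, as were ATP5ME, ATP5MG, ATP5F1C and COX7C of other complexes. In complex III, UQCR10 differed by -0.50 (adjusted p = 0.0530) and UQCRB by -0.18. A second, weaker probe set of UQCR10 was at 0.03, and other probe sets of UQCRB were at 0.05 and -0.21. UQCRC2, a core protein, was at 0.17, and the median was -0.12.

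**Figure D3:**
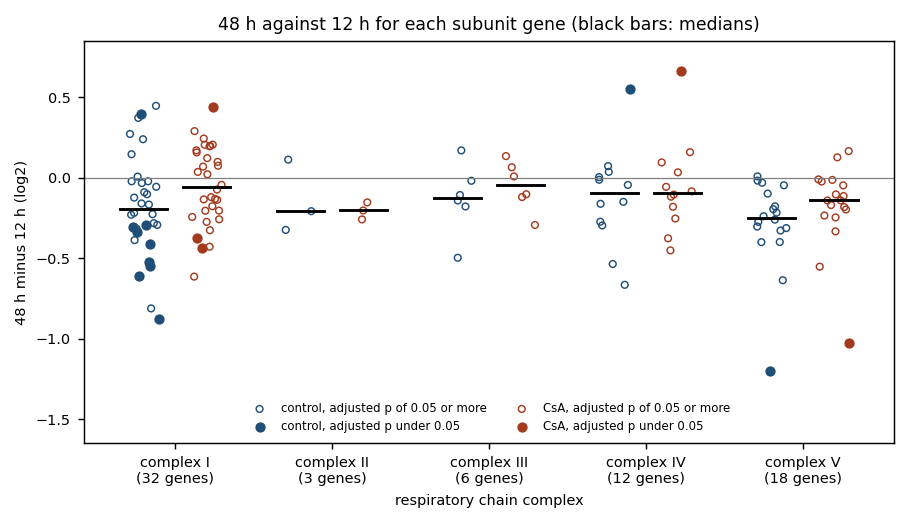
Change from 12 h to 48 h (log2, y axis) of each subunit gene in control and in CsA cells, by complex (x axis); filled points have an adjusted p under 0.05 and black bars are medians. Medians are below 0 in every complex and both treatments, from -0.25 (complex V, control) to -0.05 (complex III, CsA).

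Under CsA the time change was called for 5 subunits. COX7A2L rose by 0.66 (SE 0.12, adjusted p = 0.00842) and NDUFB5 by 0.44 (SE 0.084, adjusted p = 0.0105). ATP5MC1 fell by 1.02 (SE 0.30, adjusted p = 0.0479), NDUFB10 by 0.43 (SE 0.11, adjusted p = 0.0283) and NDUFS6 by 0.38 (SE 0.095, adjusted p = 0.0284). These are 2.82% higher and 4.23% lower, against 6.77% and 7.58% of all genes. All 5 were also called in control cells with the same sign. That is 100% of the 5 called under CsA, against 85% for all genes called there, and 45.5% of the 11 called in controls, against 46.5% for all genes. ATP5MC1 lost its call under CsA in 13 of 24 alternative settings.

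The CsA arrays of these 5 did not overlap between times. COX7A2L read 10.76, 10.66 and 10.65, then 11.56, 11.33 and 11.15. NDUFS6 read 11.88, 11.74 and 11.81, then 11.46, 11.31 and 11.53. ATP5MC1 read 8.64, 8.97 and 9.00, then 7.61, 7.55 and 8.37, again with the third 48 h array highest. Over all subunits the median was -0.11, 47 of 71 were below 0, and 21 were lower and 4 higher without overlap (29.6% and 5.63%, against 18.9% and 16% of all genes). In a fit of only the CsA arrays 0 of 71 were called, and 34 of all genes, 0.324%.

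The third replicate at 48 h stood apart from the others in many subunits, under both treatments. NDUFA2, an accessory subunit of the matrix arm, read 10.08, 10.15 and 11.07 in control 48 h and 10.16, 10.33 and 11.37 in CsA 48 h. COX6B1 read 11.50, 11.61 and 12.43 in control 48 h. Replicate 3 was the highest of its group for 43 of 71 subunits in control and 47 in CsA (60.6% and 66.2%, against 37.5% and 37.1% of all genes). Control 48 h replicate 2 was the lowest for 51 (71.8%, against 27%). The summed level of 6 fibroblast markers was also highest in replicate 3, at 10.91 in control 48 h and 10.96 in CsA 48 h (log2), with the other 48 h arrays between 9.25 and 10.32 and all 12 h arrays between 10.08 and 10.74. Of the 6, PDGFRA, PDGFRB and COL3A1 did not pass the filter, so the sum mainly read COL1A1, DCN and LUM. The summed kidney epithelium markers were lowest of all arrays in control 48 h replicate 3 (14.62) and highest in CsA 48 h replicate 3 (14.9). The part of these markers in the result was not tested.

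Without both 48 h arrays of number 3, an alternative chosen after the data were seen that leaves 2 arrays in each 48 h group, 31 subunits were lower in control cells and 4 higher (43.7% and 5.63%). All genes then gave 22.3% and 23.7%. Number 3 was the highest 48 h array for most subunits, so leaving it out lowers their 48 h level by construction. The excess of falls over all genes is therefore not read as support for a fall. The 11 calls named above were among these 35. The added risers were NDUFS1, which carries iron-sulphur clusters, and NDUFV3. The falls included NDUFA2 (-1.13), COX6B1 (-0.96), ATP5MC3 (-0.84), COX7B (-0.71), UQCR10 (-0.69) and SDHA (-0.53). Under CsA 20 were lower and 4 higher (28.2% and 5.63%, against 19.7% and 23%). The counts moved with other single arrays too. Those counts are given without the matching shares of all genes, so they are not read as particular to the subunits. In control cells 4 to 6 were called without control 12 h replicate 1, 2 or 3 or control 48 h replicate 1 or 2, and 23 or 26 without replicate 3 of control 48 h or CsA 48 h. Under CsA 2 were called without any 1 of the 3 CsA 12 h arrays or CsA 48 h replicate 1 or 2, and 16 without CsA 48 h replicate 3.

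CsA against control gave no subunit past the test at either time. The main fit does not use the pairing of arrays by replicate number. The spread shared within a pair therefore stays in its tests and intervals. At 12 h 0 of 71 were called, and 0% of all genes. At an unadjusted p under 0.05 there was 1, NDUFS3, against 1.31% of all genes. The values leaned down: 55 of 71 were below 0 with a median of -0.04, while 54.7% of all genes were below 0 with a median of -0.01. Control 12 h replicate 1 alone had 77.5% of the subunits below the control 12 h mean, against 45.4% of all genes, with a subunit median of -0.036. That mean includes the array itself, so this is not the same comparison as CsA against control. The source of the lean was not tested. Medians by complex were -0.05 in I, 0.03 in II, -0.03 in III, -0.01 in IV and -0.06 in V.

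NDUFS3, a core subunit of the matrix arm, read 9.87, 10.03 and 10.12 in control and 9.71, 9.76 and 9.82 in CsA at 12 h. The CsA arrays were all lower, with a difference of -0.24 (95% interval -0.48 to -0.01, adjusted p = 1). NDUFA8 read 10.94, 10.94 and 11.05, then 10.79, 10.76 and 10.82, also without overlap (-0.19, interval -0.38 to 0.00). ATP5MC1 had the lowest value, -0.27, with an interval from -0.94 to 0.40 that covers 0.

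At 12 h 7 subunits were lower in CsA on all arrays and 0 were higher. That is 9.86%, against 6.57% of all genes that were lower. Compared by replicate number, which pairs the arrays within a time, 29 subunits were below 0 in all 3 pairs and 2 were above (40.8% and 2.82%, against 22.5% and 18.9% of all genes). With the pairs as a block, 4 were under an unadjusted p of 0.05, all lower (NDUFA2, NDUFA8, NDUFS3 and ATP5MC1), which is 5.63% against 7.28% of all genes. None passed adjustment.

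At 48 h 0 of 71 were called, again 0% of all genes, and 0 had an unadjusted p under 0.05, against 2.52%. Here 50 of 71 lay above 0, with a median of 0.05, while all genes had a median of -0.02. NDUFB7 was the highest at 0.30 (interval -0.03 to 0.63), reading 9.53, 9.40 and 9.53 in control and 9.52, 9.72 and 10.13 in CsA, so that the lowest CsA array overlapped the controls. ATP5MC2 was at 0.25 (interval -0.05 to 0.55) and NDUFV3 was lowest at -0.30 (interval -0.89 to 0.29).

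NDUFB1, a small membrane arm subunit, was the 1 gene whose CsA arrays all lay above the controls (1.41%, against 2% of all genes). It read 12.25, 12.10 and 12.31 in control and 12.33, 12.35 and 12.62 in CsA. The pairs differed: the median subunit difference was -0.02, 0.14 and 0.03 in replicates 1, 2 and 3, and in pair 2 the control array was the one lowest for 51 subunits. In all 3 pairs 19 subunits were above 0 and 4 below (26.8% and 5.63%, against 13.4% and 16.2% of all genes). With the pairs as a block 5 were higher and 1 lower at an unadjusted p under 0.05 (NDUFA13, NDUFB1, NDUFB7, ATP5MC2, ATP5MJ and, lower, SDHD), 8.45% against 12.3% of all genes, and none passed adjustment.

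**Figure D4:**
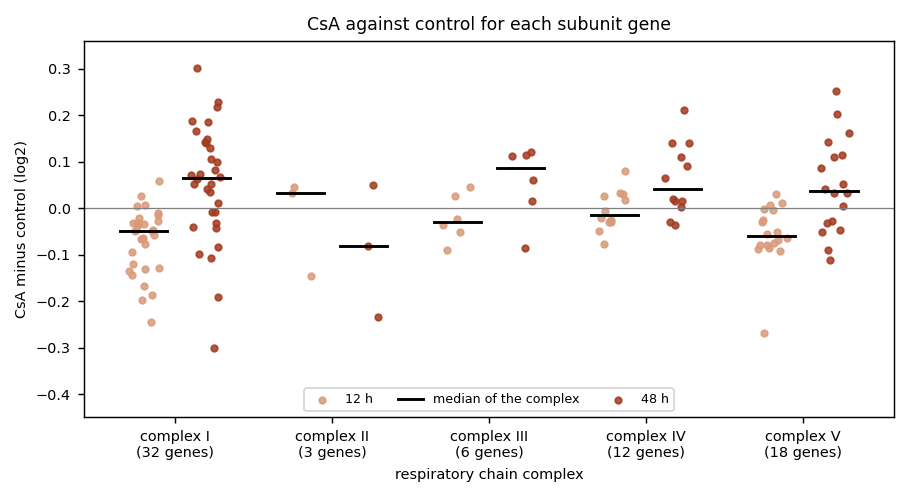
CsA minus control (log2, y axis) of each subunit gene at 12 h and at 48 h, by complex (x axis); black bars are medians of a complex. No gene passed the test; the values span -0.27 to 0.08 at 12 h and -0.30 to 0.30 at 48 h.

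The difference between the CsA effects at 48 h and 12 h was tested as an interaction. It was called for 0 of 71 subunits and 0% of all genes, and 0 subunits had an unadjusted p under 0.05, against 1.54% of all genes. The median difference was 0.09, with 58 of 71 above 0, against 49.6% of all genes. It was 0.13 in complex I, 0.00 in complex II, 0.08 in III, 0.05 in IV and 0.09 in V. For NDUFB7 it was 0.35 (interval -0.12 to 0.82).

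These arrays could bound the CsA effect for most subunits. At 12 h the 95% interval lay within 0.5 log2 units of 0 for 61 of 71 (85.9%, against 50.3% of all genes), and at 48 h for 57 (80.3%, against 45.7%). Those outside at 12 h were NDUFA2, NDUFA7, NDUFB3, NDUFS7, NDUFV2, NDUFV3, SDHA, COX6B1, ATP5MC1 and ATP5MC3, so a change of that size was not bounded for them.

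Other genes of the pathway were read in the same way. None was called for CsA against control at either time. In control cells, mitochondrial ribosomal proteins, which make the core subunits coded in mitochondrial DNA, had a median time change of -0.25, with 21 of 75 lower (28%) and 2 higher (2.67%; MRPL45 and MRPS6), against 13.7% and 12.5% of all genes. Of 47 assembly factors 5 fell (COX16, NDUFAF6, NDUFAF8, TMEM70 and UQCC3) and 2 rose (LRPPRC and SDHAF4), which is 10.6% and 4.26%, with a median of 0.02. TMEM70, which helps to build complex V, fell by 0.63 (SE 0.098, adjusted p = 0.0026).

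NDUFAB1, the acyl carrier protein of complex I, fell by 0.46 (SE 0.11, adjusted p = 0.0127). Of 11 citric acid cycle genes IDH3A and IDH3B fell and SUCLG2 rose. No transcription regulator of the chain, of 11, was called there, nor were CYCS (cytochrome c), CYC1 (cytochrome c1 of complex III), COQ10A or COQ10B (coenzyme Q binding). Under CsA, TFAM, which drives transcription of mitochondrial DNA, fell between times by 0.54 (SE 0.15, adjusted p = 0.0387), and differed by -0.42 in controls (adjusted p = 0.0593). It was the 1 called of the 11 regulators. In the same comparison 13 of 75 mitochondrial ribosomal genes fell (17.3%) and MRPL45 rose (1.33%), against 7.58% and 6.77% of all genes. Of the 47 assembly factors NDUFAF6, TMEM70 and UQCC3 fell (6.38%), and of the 11 citric acid cycle genes IDH3A did (9.09%).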

How the data were processed

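The authors made the deposited log2 values with GCRMA, per the submitters' processing notes; its version is not given in the sources used here. GCRMA adjusts background by probe sequence, normalises by quantiles and summarises probe sets. Values were used as deposited.

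A gene was the probe set with exactly 1 symbol and the highest mean, tested if above 4 on all 3 arrays of any group (10508 genes). The 4 group means over 12 arrays (8 residual degrees of freedom) were fitted with limma 3.58.1 in R 4.3.3, moderated by eBayes, two-sided, with Benjamini-Hochberg adjustment over all genes and a threshold of 0.05. SE are moderated. The number of arrays limits the precision. Members and lists were chosen with earlier results of these data known. Genes named are the 2 per complex with the largest statistic in each CsA comparison and the control time comparison, all called genes, paralogues and ATP5IF1; others, such as NDUFA2, were chosen after their values were seen. Probe sets with several symbols (10 matching, among them those of NDUFS8, UQCRH, NDUFC2 and ATP5MF) were not used here. NDUFA4, SDHB and UQCRFS1 were not among the 78 genes that matched.

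Replicate numbers pair arrays within a time: deviations of CsA and control arrays of 1 number correlated at 0.37, 0.53 and 0.59 (12 h) and 0.78, 0.54 and 0.74 (48 h), best with their own number. This comes from the data, since no label explains the numbers. Between times they did not pair (-0.14 to 0.23). The replicates are labelled biological, without saying whether each was a separate culture, so p-values measure the spread between these samples. The fit was also run on simulated data, with replicates drawn independently, without pairs. The planted changes were larger than any CsA difference of a subunit. That run therefore does not show how the fit handles small effects in paired arrays.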

Additional observations from a re-analysis of the deposited data

How the results depend on the processing

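All values here are counts of subunits past the test or log2 changes. The 2 CsA comparisons and their difference kept 0 subunits called under every alternative run. NDUFS6, NDUFB10, NDUFB5 and COX7A2L kept their control time call under all 24 alternatives. The call was lost under 11 for NDUFA6, 10 for NDUFA9, 6 for NDUFB3, 5 each for NDUFA8 and NDUFB4, 4 for ATP5MC1 and 2 for NDUFB7. Under CsA it was lost under 13 for ATP5MC1, 8 for NDUFB10, 6 for NDUFS6 and 1 each for COX7A2L and NDUFB5. The control time count, 11, was 36 with the replicate block within each time, which removes the spread between replicates from a comparison of times that the numbers do not pair, and 53.1% of all genes were then called. It was 21 with a variance trend and robust moderation, and, in alternatives chosen after seeing the data, 23 with the replicate block across times and 35 without both 48 h arrays of number 3. Leaving out 1 array gave 4 to 26. The count under CsA, 5, was 19 with the replicate block within each time, 3 with arrays centred on their median, 0 with only the arrays compared, 8 with the block across times, 24 without both arrays of number 3, and 2 to 16 with 1 array left out. Pairs as a random block (correlation 0.614) gave 16 and 5. In control time the share of all genes called moved as well, from 26.2% without a block to 53.1% with the block within each time. These changes in count are therefore not read as particular to the subunits. Leaving out 1 array moved the median from -0.23 to -0.13 in control time, -0.13 to -0.08 in CsA time, -0.06 to -0.02 and 0.005 to 0.089 for CsA at 12 h and 48 h. Among single genes signs turned for 3 small values: COX4I1 in control time (0.019 after quantile normalization), COX6A2 (-0.021 with centred arrays and -0.069 after quantile normalization) and SDHA under CsA at 48 h (-0.21 to 0.12, positive without control 48 h replicate 3, and 0.032 without CsA 48 h replicate 1). Medians of complexes also crossed 0, none with a called gene: for CsA at 12 h complex IV (-0.025 to 0.0037), at 48 h complexes II (-0.21 to 0.12), IV (-0.0074 to 0.098) and V (-0.011 to 0.11), and for their difference II (-0.14 to 0.14) and IV (-0.0059 to 0.095). The cause of these moves was not tested.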

Other observations

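Of 41 further probe sets past the filter for 26 subunits, 33 had the same sign of control time change as the one used and 8 the opposite. NDUFA6 had -0.46 on its second. In CsA cells NDUFB7 and NDUFA8 differed by -0.26 and -0.07 between 12 h and 48 h (adjusted p = 0.251 and 0.571), and the differences between treatments, 0.35 and 0.22, did not pass the test (adjusted p = 1).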
